A study of Mus musculus with 3 samples.

Results

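Natural killer (NK) cells were picked out of mouse liver single-cell RNA libraries by a marker gate, which held 333 of 25263 cells. The members were selected on measured values. A barcode entered the gate when it had at least 200 detected genes, at least 2 of the NK genes Ncr1, Klrb1c, Klre1, Gzma and Cd160 with a unique molecular identifier (UMI, the count of 1 captured transcript), and fewer than 2 of the T cell genes Cd3d, Cd3e, Cd3g, Trac, Trbc1 and Trbc2. The levels of these 11 genes in the gated cells are therefore a description of the rule and support nothing.

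Livers of adult C57BL/6 mice were injured by irreversible electroporation (IRE), in which short electric pulses permanently open cell membranes, and were sampled by punch 1 day or 7 days later. The control livers were labelled as sham operated and sampled after 1 day, whereas the study's methods describe an equivalent uninjured area. Each of the 3 groups was 1 library of pooled livers made by Drop-seq, which tags the transcripts of single cells in droplets, so no group had a replicate, no test between conditions was possible, and animal, day and library cannot be told apart. The 95% intervals given here cover counting error only.

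NK cells are innate lymphocytes that kill stressed, infected or transformed cells without prior sensitisation. They weigh signals from activating and inhibitory receptors, release granules that hold perforin and granzymes, and secrete chemokines and interferon gamma. The liver is rich in them, and its NK cells are usually divided into circulating conventional NK cells, which depend on Eomes, and resident type 1 innate lymphoid cells (ILC1).

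The control, 1-day and 7-day libraries held 10386, 9253 and 5624 cells with at least 200 genes, with medians of 595.0, 509.0 and 456.5 UMIs. Mitochondrial transcripts took 22.5%, 21.4% and 5.24% of the UMIs of the gated cells, so levels are given as CPM, the UMIs of a gene scaled to the same total of nuclear-encoded UMIs in each library's gated cells. Hepatocyte markers took 0.0557%, 3.17% and 0.0224% of nuclear-encoded UMIs in the gated cells and 0.207%, 3.29% and 0.0818% in the barcodes with fewer than 200 genes. At 1 day, 74 of the 77 gated cells carried at least 2 hepatocyte markers. At 7 days, 16 of the 20 carried at least 2 neutrophil markers. Markers of monocytes and macrophages were carried at 2 or more by 88, 47 and 9 gated cells. The part of such RNA in the results was not tested. Values without cells carrying at least 2 markers of 1 other type, which left 128, 17 and 2 gated cells, are given for some results only. Those types were B cells, neutrophils, monocytes and macrophages, endothelial cells and mesenchymal cells. Hepatocyte markers were not used to leave cells out. No barcode was an NK cell in more than 1 library, and 4 NK barcodes matched the barcode of a cell of another kind in a different library.

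The gate held 236 of 10386 control cells, which is 2.27% (exact Clopper-Pearson interval 1.99 to 2.58%). It held 77 of 9253 cells at 1 day, or 0.832% (0.657 to 1.04%). It held 20 of 5624 cells at 7 days, or 0.356% (0.217 to 0.549%). The 3 intervals did not overlap. The share at 1 day was 0.366 of the control share (0.279 to 0.476), and that at 7 days was 0.157 of it (0.0939 to 0.247). A count of T cells by the mirror rule (at least 2 T genes and fewer than 2 NK genes) gave 392, 245 and 105 cells. NK cells were 37.6% (33.8 to 41.5%) of NK plus T cells in the control library, 23.9% (19.4 to 29.0%) at 1 day and 16.0% (10.1 to 23.6%) at 7 days. The control interval lay above both others, while those at 1 and 7 days overlapped.

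Gated cells were shallowest at 7 days, with medians of 599.0, 558.0 and 371.5 UMIs in the control, 1-day and 7-day libraries. With every cell thinned to 300 UMIs before the gate, and shallower cells left out (209, 298 and 545 of them), the gate held 1.28%, 0.480% and 0.236% of cells. The order of the libraries was unchanged by thinning, but the thinned intervals at 1 day (0.348 to 0.646%) and 7 days (0.122 to 0.412%) overlapped. A share of a fixed number of captured cells falls when other cells arrive or are lost, and fewer NK cells and more of other types cannot be told apart here.

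**Figure D1:**
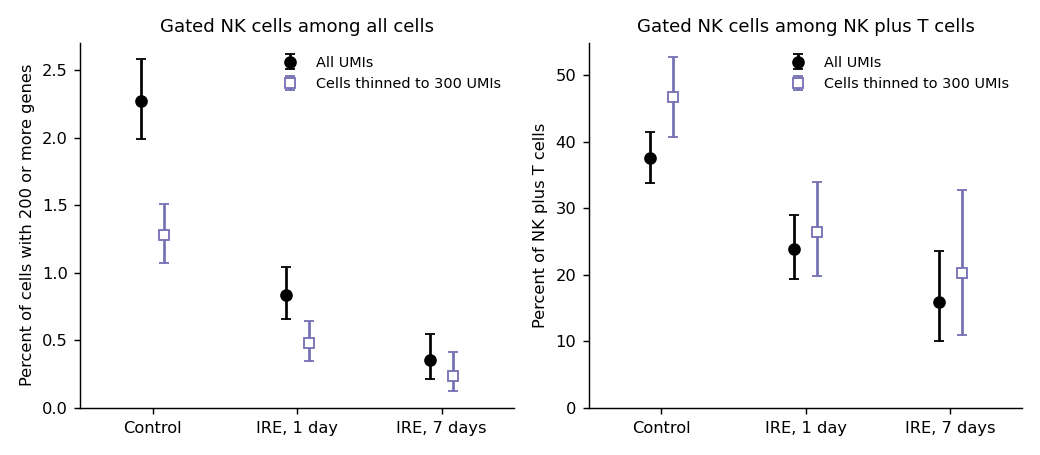
Gated NK cells as a percentage of all cells with at least 200 genes (left) and of NK plus T cells (right) in each library; filled points use all UMIs, open points use cells thinned to 300 UMIs, and bars are 95% exact intervals for counting error. Both percentages were highest in the control library (2.27% and 37.6%) and lowest at 7 days (0.356% and 16.0%).

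Gzma, which encodes the granule protease granzyme A, admitted most members. It was detected in 207 of the 236 control cells, 59 of the 77 cells at 1 day and 17 of the 20 at 7 days. In the other cells, which met neither the NK rule nor the T rule and did not carry 2 or more genes of both kinds, it was detected in 4.19%, 2.84% and 0.965%. Ncr1, the activating receptor NKp46, was detected in 61, 14 and 8 cells. Klrb1c, the NK1.1 antigen, was detected in 109, 41 and 9 cells, and Klre1, a lectin-like receptor, in 92, 30 and 9. Cd160, a receptor shared with some T cells, was detected in 57, 30 and 3 cells. The commonest pair was Klrb1c with Gzma, found in 38.1% of all members, followed by Klre1 with Gzma in 30.3%.

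Most members lay just inside the threshold. Exactly 2 NK genes were found in 263 of the 333 members, 3 in 60 and 4 in 10. Just outside it, 1354 cells of the 3 libraries carried exactly 1 NK gene. In control cells with exactly 1 NK gene and fewer than 2 T genes, Gzma stood at 2303 CPM, against 7159 in members with exactly 2 NK genes. In cells with at least 3 markers of B cells, the gate was passed by 0 of 46 control cells. There 3 counts, the floor for a count of 0, would be 6.52%, and the exact upper limit is 7.71%. The gate was passed by 53 of 4892 control cells with at least 3 monocyte or macrophage markers (1.08%).

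The label was checked on NK genes that the rule did not use, against T cells of the same library. Both gates were drawn from expression in these cells, so these ratios are a description. In the control library 116 of 3585 genes were at least 2-fold higher in NK cells with an interval that left out 1 (3.24% of genes tested), and 121 were as far lower (3.38%). At 1 day 92 of 2164 genes were higher (4.25%) and 57 lower (2.63%). At 7 days 20 of 499 were higher (4.01%) and 23 lower (4.61%). Against these backgrounds, 7 of 11 activating receptors, 5 of 6 inhibitory receptors, 5 of 7 cytokines and chemokines and 8 of 11 conventional NK genes were higher in control NK cells, with median log2 ratios of 1.52, 2.01, 1.84 and 2.47 beside -0.01 for all genes. Fewer could be tested after injury. At 1 day 1 of 4 activating receptors, 2 of 2 inhibitory receptors, 2 of 4 cytokines and chemokines and 2 of 5 conventional NK genes were higher, and 1 cytokine or chemokine and 1 conventional gene were lower. At 7 days 0 of 1 activating receptor, 3 of 5 cytokines and chemokines and 1 of 4 conventional NK genes were higher, and 1 conventional gene was lower.

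The Ly49 receptors, lectin-like proteins that read MHC class I, stood furthest from T cells. Klra4, which encodes an activating Ly49 receptor, had 67 UMIs in control NK cells and 3 in T cells. Its level was 45.7-fold higher (15 to 227). Klra8, the activating receptor Ly49H, had 76 and 4 UMIs and was 38.9-fold higher (14.6 to 146). Prf1, the pore-forming perforin, had 42 and 4 UMIs and was 21.5-fold higher (7.80 to 82.5). Eomes, the transcription factor of conventional NK cells, had 27 and 10 UMIs and was 5.53-fold higher (2.59 to 12.8).

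The genes furthest above T cells also held some of other functions. Car2, a carbonic anhydrase, was 16.0-fold higher (6.29 to 51.9). Cd7, an immunoglobulin-family receptor of lymphocytes, was 4.88-fold higher in control NK cells (3.23 to 7.51) and 3.67-fold higher at 1 day (2.18 to 6.15). The remaining genes ranked among the 15 with the largest ratio were Klra9, Klri2, Klra7, Lat2, Serpinb9, Apobr, Itgax, Sulf2 and Cd244. Genes of the ILC1 list lay the other way, with 0 of 9 higher and 5 lower in control NK cells than in T cells. At least 1 gene of that list was detected in 54.3% of control T cells and 30.5% of control NK cells. The comparison therefore does not show whether ILC1 were among the members.

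**Figure D2:**
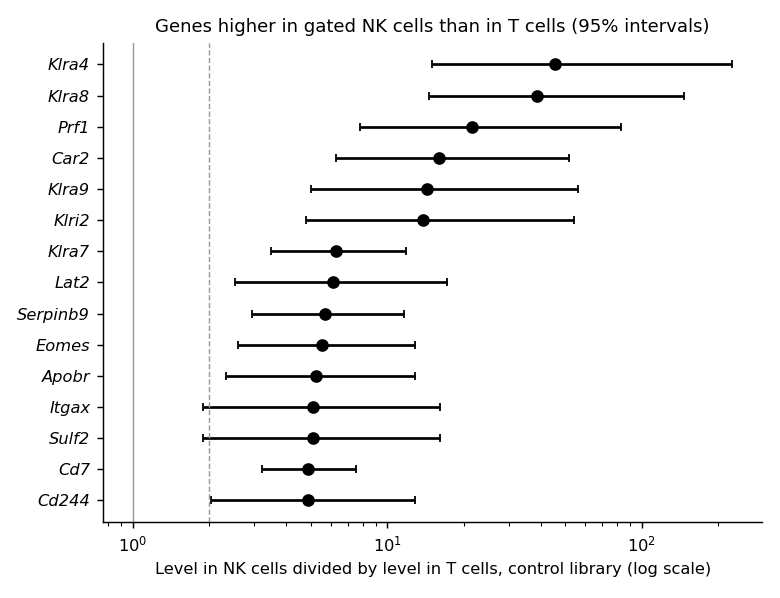
Level in gated NK cells divided by the level in T cells of the control library, on a log axis, for the 15 genes with the largest ratio; points are ratios, bars are 95% counting intervals, the solid line marks equal levels and the dashed line 2-fold. Klra4 and Klra8 stood furthest out at 45.7-fold and 38.9-fold.

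Members were not uniform within the control library. No T gene was detected in 162 of them and 1 T gene in 74. Members with 1 T gene had 4.30 times the level of the other T cell markers (2.23 to 8.72). They had 0.596 of the Ly49 level (0.444 to 0.792) and 0.519 of the level of Tyrobp, the DAP12 adaptor of activating receptors (0.381 to 0.697). Their Gzmb level, for granzyme B, was 2.17-fold higher (1.47 to 3.21), whereas Klrd1 (CD94) stood at 0.958 (0.579 to 1.55) and Ccl5 at 0.907 (0.778 to 1.05).

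Barcodes with at least 2 NK and at least 2 T genes were kept out of both gates. They numbered 49, 17 and 6. In the control library their median was 1076.0 UMIs against 599.0 for NK cells. Their Ly49 level was 6.91-fold higher than in T cells (4.73 to 10.2) and their Cd7 level 8.07-fold higher (5.16 to 12.8). Whether these were doublets or T cells with NK genes was not tested.

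Genes of dividing cells set the control NK cells apart from those after injury. Mki67, which encodes the Ki-67 protein of cycling cells, had 132 UMIs in control NK cells, 3 at 1 day and 0 at 7 days, or 980.5, 64.3 and 0 CPM. Top2a, the topoisomerase that untangles replicated DNA, had 149, 8 and 0 UMIs. Hmgb2, a chromatin protein high in cycling cells, had 491, 23 and 5 UMIs, or 3647, 493 and 561 CPM. For each of these genes both injured libraries lay below the control.

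At 1 day, 148 of 1750 genes tested were at least 2-fold higher than in control NK cells (8.46%) and 177 were as far lower (10.1%), with a median log2 ratio of -0.24 over all of them. Of 14 cell division genes tested, 0 were higher and 10 were lower, with a median log2 ratio of -1.55. Mki67 stood at 0.0656 of its control level (0.0133 to 0.196), Top2a at 0.155 (0.0656 to 0.313) and Hmgb2 at 0.135 (0.0848 to 0.205). Birc5, which encodes survivin, stood at 0.0930 (0.00228 to 0.558). The summed level of the list was 10792 CPM in control NK cells and 2657 at 1 day, which is 0.246 of it (0.203 to 0.296).

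Further genes of chromosome structure and replication were among the 10 that fell furthest at 1 day, along with Spn, the sialoglycoprotein CD43, and Ugcg, a glycolipid enzyme. Smc2, a condensin subunit, went from 67 UMIs to 1, and Ezh2, the methyltransferase of Polycomb complex 2, from 65 to 1. Cenpe, a motor protein of the kinetochore, went from 51 to 1, and Lig1, the DNA ligase of replication, from 34 to 1. Their ratios ran from 0.0431 for Smc2 to 0.0848 for Lig1. Each of the 4 intervals lay below 1. Without cells that carried markers of other types the 4 genes had 0 UMIs at 1 day and no longer passed. With free RNA subtracted they also had 0, and of the 4 only Lig1 no longer passed.

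At 7 days, 67 of 1303 genes were higher than in control NK cells (5.14%) and 37 were lower (2.84%), with a median log2 ratio of -0.33. Of 11 cell division genes, 0 were higher and 3 were lower, namely Mki67, Top2a and Hmgb2. With a floor of 3 counts in the library, Mki67 was at least 2.91-fold lower and Top2a at least 3.29-fold lower. Hmgb2 stood at 0.154 (0.0497 to 0.362), and the summed list at 0.198 (0.119 to 0.310). Between 7 days and 1 day, 41 of 432 genes were higher (9.49%) and 62 lower (14.4%), and 0 of 2 cell division genes passed in either direction.

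**Figure D3:**
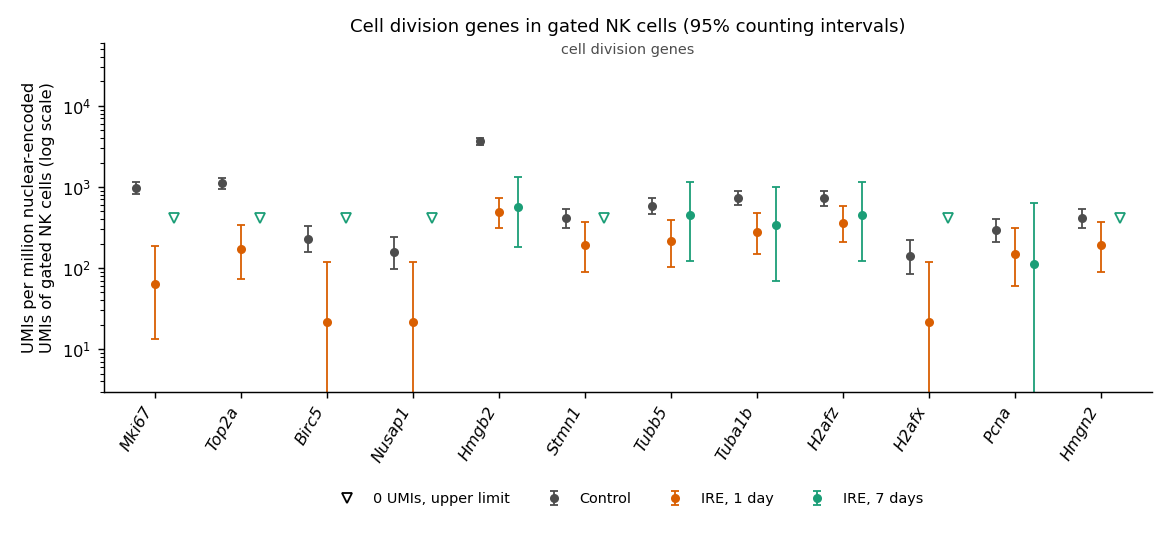
Levels of 12 cell division genes in gated NK cells, in CPM of nuclear-encoded UMIs on a log axis, for the control, 1-day and 7-day libraries; bars are 95% counting intervals and open triangles mark the upper limit where the count was 0. Control points lay above the 1-day points for all 12 genes.

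Counted by cell, Mki67 or Top2a was detected in 68 of 236 control NK cells (28.8%), in 4 of 77 at 1 day (5.19%) and in 0 of 20 at 7 days, where 3 counts, the floor for a count of 0, would be 15% and the exact upper limit is 16.8%. With cells thinned to 300 UMIs the shares were 20.6% (15.6 to 26.4%), 2.63% (0.320 to 9.18%) and 0 of 17 (exact upper limit 19.5%). Thinned T cells gave 25.3%, 7.14% and 12%, and the other cells 7.19%, 4.41% and 0.705%. The fall after injury was thus seen in all 3 kinds of cells. The summed division list at 1 day stood at 0.361 of control in T cells (0.333 to 0.389) and at 0.616 in the other cells (0.602 to 0.631), both above the interval in NK cells.

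**Figure D4:**
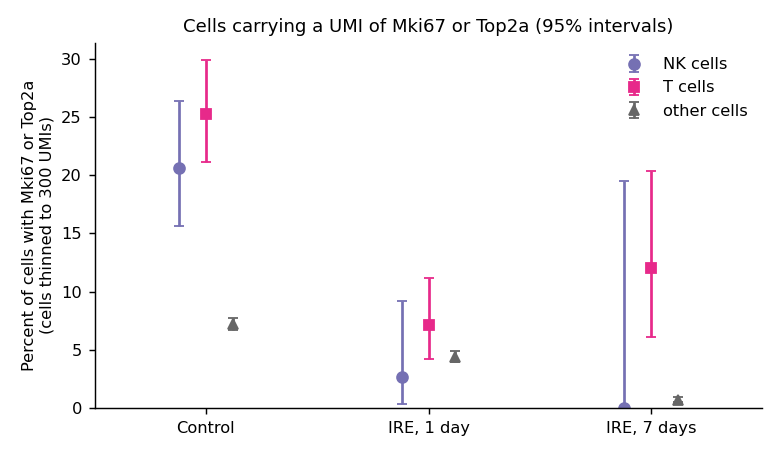
Percentage of NK cells, T cells and all other cells with a UMI of Mki67 or Top2a in each library, after thinning each cell to 300 UMIs; bars are 95% exact intervals for counting error. NK cells went from 20.6% in the control library to 2.63% at 1 day and 0 of 17 at 7 days.

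Within the control library, the 68 NK cells with Mki67 or Top2a were deeper than the others, with medians of 842.5 and 537.0 UMIs. Apart from those 2 genes, their cell division genes stood 6.08-fold higher (5.27 to 7.04). Their level of Ccl5, a chemokine of effector lymphocytes, was 0.338 of that in the others (0.279 to 0.406), and that of Tyrobp was 0.507 (0.377 to 0.673). Their Nkg7 level, for a granule protein, was 0.929 (0.720 to 1.20), an interval that held 1. Without these cells the summed division list stood at 0.523 of control at 1 day rather than 0.246, and at 0.727 at 7 days rather than 0.198.

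Klrd1, Tyrobp and Xcl1 did not pass the 2-fold limit at either time with the main gate and scaling. Klrd1, whose product pairs with NKG2 receptors, had 594, 514 and 673 CPM in the control, 1-day and 7-day libraries. Tyrobp had 1991, 2035 and 1908 CPM, and Xcl1, a chemokine that draws dendritic cells, had 572, 686 and 673. Tyrobp was not particular to NK cells. It was detected in 50.8% of the other cells in the control library and 74.5% at 7 days, beside 61.0% and 55.0% of NK cells. The ratios of the 3 genes to control ran from 0.865 for Klrd1 at 1 day to 1.20 for Xcl1 at 1 day, and each interval held 1. The interval of Klrd1 ran from 0.524 to 1.38 at 1 day and from 0.404 to 2.58 at 7 days, so a change of 2-fold at 7 days was not detectable at this depth. With TMM factors, which scale libraries to a common centre of gene ratios, the 3 genes stood at 0.511, 0.433 and 0.531 at 7 days. With free RNA subtracted they stood at 2.59, 2.41 and 3.62 at 1 day. That subtraction left 23.8% of nuclear-encoded UMIs at 1 day and 74.8% in control. The smaller totals alone multiplied every 1-day ratio by 3.14. At 7 days the subtraction put the 3 genes at 1.06, 0.454 and 1.09, Tyrobp on 7 UMIs. Without cells that carried markers of other types the 3 genes stood at 0.544, 0.873 and 2.34 at 1 day. They rested on 3, 11 and 10 UMIs there, and Xcl1 passed the limit. At 1 day Klrk1, the NKG2D receptor, stood at 0.504 (0.239 to 0.964) and Nkg7 at 0.549 (0.400 to 0.741), short of the 2-fold limit. With TMM factors these 1-day ratios were 0.415 and 0.453, past the limit, and with free RNA subtracted they were 1.21 and 1.58.

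Genes of mature conventional NK cells were lower at 1 day. Over all genes tested at that time 8.46% were higher and 10.1% lower. Of 11 conventional NK genes tested, 0 were higher and 7 were lower, among them Eomes, Itgam, Ly6c2, Klra4, Klra8 and Prf1. The median log2 ratio was -1.86, or -1.64 with Eomes at its bound. Eomes had 27, 0 and 3 UMIs and was at least 3.12-fold lower at 1 day. Klra4 had 67, 5 and 12 UMIs and stood at 0.215 at 1 day (0.0677 to 0.528). Prf1 had 42, 4 and 10 UMIs and stood at 0.275 (0.0715 to 0.757).

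Of 11 trafficking receptors and integrins tested at 1 day, 0 were higher and 4 were lower, beside 8.46% and 10.1% of all genes. The summed list stood at 0.642 in NK cells, 0.625 in T cells and 0.614 in the other cells. Ccr2, a chemokine receptor, had 93, 3 and 7 UMIs and stood at 0.0930 at 1 day (0.0188 to 0.280). Itgal, the LFA-1 alpha chain, stood at 0.304 (0.0787 to 0.843). Ccr2, Itgam and Ly6c2 are also expressed by myeloid cells, and Ccr2 stood at 0.188 of control in the other cells of the 1-day library.

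This fall in conventional NK genes depended on how RNA of other cells was handled. The summed list stood at 0.442 of control at 1 day (0.348 to 0.556), at 0.737 in T cells and at 0.512 in the other cells. Without gated cells that carried markers of other types, hepatocyte markers not counted, it stood at 0.644. This left 128 control cells and 17 at 1 day. With free RNA subtracted, which an estimate from hepatocyte markers put at 96.2% of UMIs at 1 day, it stood at 0.936. The smaller totals after subtraction alone multiplied every 1-day ratio by 3.14. Klra4 stood at 1.07 without such cells, on 3 UMIs at 1 day, and at 0.696 after subtraction. Klra8 stood at 0.222 without such cells, on 1 UMI, and at 1.12 after subtraction. The cell division list stood at 0.265 and 0.360 under the same settings.

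**Figure D5:**
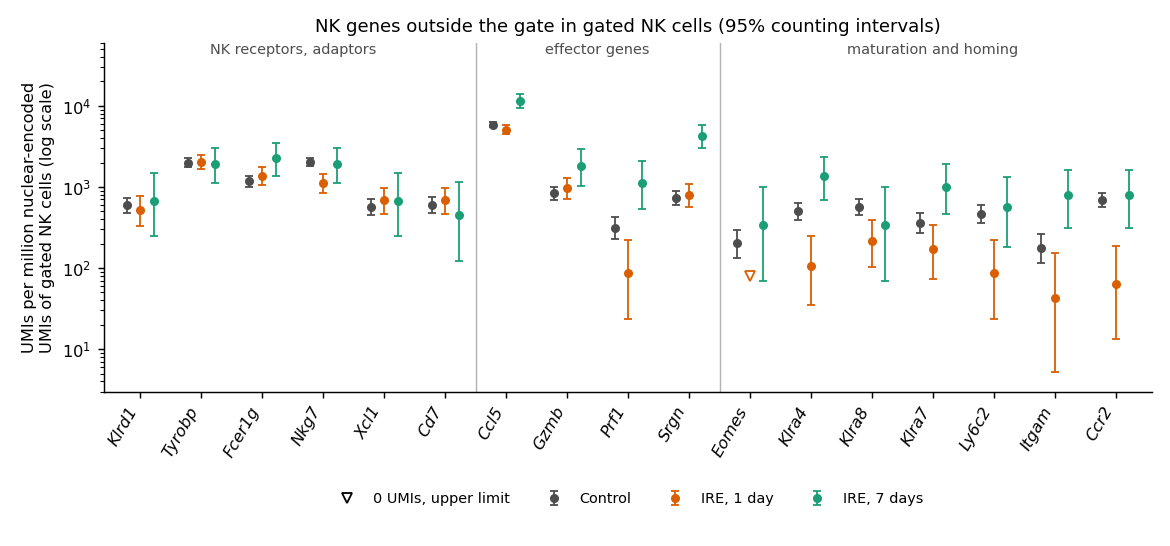
Levels of NK genes outside the gate in gated NK cells, in CPM of nuclear-encoded UMIs on a log axis, for receptors and adaptors, effector genes, and genes of maturation and homing; bars are 95% counting intervals and the open triangle marks the upper limit where the count was 0. Klrd1, Tyrobp and Xcl1 overlapped in all 3 libraries, while Ccr2 fell from 691 CPM in the control library to 64.3 at 1 day.

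At 1 day, when 8.46% of all genes tested were higher and 10.1% lower, the receptors did not move as 1 group. Of 8 activating receptors tested, 1 was higher (Fcgr3, a receptor for antibody) and 3 were lower (Klra4, Klra8 and Slamf7), with a median log2 ratio of -0.80. Of 6 inhibitory receptors, 1 was higher and 0 were lower, with a median of 0.20. The riser was Klra5, a Ly49 receptor, with 18 UMIs in control cells and 17 at 1 day, a ratio of 2.72 (1.32 to 5.60). ILC1 genes were scarce, with a summed level of 795 CPM in control cells, 943 at 1 day and 673 at 7 days. The ratio at 1 day was 1.19 (0.815 to 1.70).

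Effector genes at 1 day were mostly within 2-fold of control before free RNA was subtracted. Of 11 cytotoxic granule genes, 1 rose and 1 fell, shares near the 8.46% higher and 10.1% lower of all genes. Lamp1, the lysosomal membrane protein CD107a that appears at the surface on degranulation, had 47 UMIs in both the control and 1-day libraries and rose 2.88-fold (1.88 to 4.42). With free RNA subtracted Lamp1 kept 7 UMIs at 1 day and, at a ratio of 2.35, no longer passed. Gzmb had 112, 45 and 16 UMIs and stood at 1.16 at 1 day (0.801 to 1.65). Ccl5 had 790, 238 and 102 UMIs and stood at 0.869 (0.749 to 1.01). With free RNA subtracted Gzmb stood at 3.49 and Ccl5 at 2.57, both past the limit. Every 1-day ratio was multiplied by 3.14 there by the smaller totals alone.

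Interferon-stimulated genes had a summed level of 3550.4 CPM in control NK cells, 5099 at 1 day and 7183 at 7 days. Of 13 tested at 1 day, 2 were higher and 0 lower, beside 8.46% and 10.1% of all genes, with a median log2 ratio of 0.53. Ly6a, the Sca-1 antigen, rose 2.51-fold (1.31 to 4.78), and Bst2, the antiviral membrane protein tetherin, rose 3.08-fold (1.42 to 6.68). The summed ratio was 1.44 at 1 day (1.22 to 1.68) and 2.02 at 7 days (1.53 to 2.63). In T cells it was 0.839 at 1 day (0.766 to 0.918) and 2.09 at 7 days (1.89 to 2.32). In the other cells it was 0.875 and 1.37. With TMM factors the NK cell ratio stood at 1.18 at 1 day and at 0.913 at 7 days. Without cells that carried Mki67 or Top2a it stood at 1.16 at 1 day and at 1.67 at 7 days. Endothelial markers, which mark cells that also express Ly6a and Bst2, took 0.0713% of nuclear-encoded UMIs of NK cells in the control library, 0.403% at 1 day and 0.112% at 7 days. At least 2 of the 12 were carried by 16, 32 and 1 gated cells. Without cells that carried markers of other types the summed ratio at 1 day was 1.58, on 28 UMIs in 17 cells. At 7 days it was 1.04, on 2 UMIs in 2 cells.

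Of 10 heat shock genes 0 rose and 1 fell at 1 day, a share near the 10.1% of all genes. Hsp90aa1, an inducible chaperone, had 166, 17 and 5 UMIs and stood at 0.295 (0.168 to 0.487). Of 26 actin and motility genes 0 rose and 6 fell, among them Lgals1, for galectin 1, at 0.285 (0.179 to 0.434). Of 12 translation factors 0 rose and 3 fell, with Ncl, for nucleolin, at 0.381 (0.266 to 0.534). The summed actin and motility list stood at 0.528 in T cells and 0.573 in the other cells, beside 0.646 in NK cells.

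The 10 genes that rose furthest at 1 day outside the marker lists were Cp, Serpina1d, Ambp, Serpina3k, Gc, Ahsg, Fabp1, Fgg, Rbp4 and Kng1, all of which hepatocytes express. These values moved with the hepatocyte RNA given above, which took 4.59% of nuclear-encoded UMIs in T cells of the same library.

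At 7 days the values rested on 20 cells and 8910 nuclear-encoded UMIs, of which the deepest cell gave 13.2% of all UMIs. Of 11 cytotoxic granule genes, 3 were higher and 0 lower, beside 5.14% and 2.84% of all genes. Srgn, the proteoglycan core of granules, had 99 UMIs in control cells and 38 at 7 days, 5.80-fold higher (3.88 to 8.51), and was 14.7-fold higher in the other cells of that library. Prf1 was 3.60-fold higher (1.61 to 7.29) and Gzmb 2.16-fold higher (1.19 to 3.66). The summed granule list stood at 1.95 in NK cells, 2.84 in T cells and 2.71 in the other cells. With TMM factors the sum stood at 0.882 and Gzmb at 0.974. With free RNA subtracted Srgn stood at 0.461, on 2 UMIs left at 7 days, below the floor of 3 counts. Ccl5 was detected in all 20 cells and stood at 1.95 (1.57 to 2.40), just short of the limit, and at 0.881 with TMM factors. Without cells that carried markers of other types it stood at 2.51 and passed, on 13 UMIs in the 2 cells left.

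Conventional NK genes at 7 days ran opposite to those at 1 day. Of 11 tested, 4 were higher (Itgam, Klra4, Klra7 and Prf1) and 0 lower, beside 5.14% and 2.84% of all genes. The summed ratio was 2.02 (1.57 to 2.57). Itgam, also expressed by myeloid cells, rested on 7 UMIs at 7 days. Klra4 was 2.71-fold higher than control (1.33 to 5.04), and Klra7, the Ly49G receptor, 2.78-fold higher (1.20 to 5.71). With TMM factors Itgam, Klra4, Klra7 and Prf1 stood at 1.99, 1.22, 1.25 and 1.62, and none passed. Without cells that carried markers of other types 2 cells were left at 7 days, with 0 UMIs of Klra4. In T cells the summed list stood at 3.55 and in the other cells at 1.59.

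Of 11 immediate early genes 3 were higher and 0 lower, namely Fos at 4.65-fold (1.82 to 10.6), Junb at 4.05-fold (1.88 to 8.03) and Nfkbia, the inhibitor of NF-kappaB, at 3.67-fold (2.02 to 6.30). The summed immediate early list stood at 2.52 in NK cells, 1.73 in T cells and 2.42 in the other cells. Of 8 glycolysis genes 4 were higher and 0 lower, among them Ldha, for lactate dehydrogenase, at 3.30-fold (1.61 to 6.23). Over all genes tested at 7 days 5.14% were higher and 2.84% lower. The summed glycolysis list stood at 2.44 in NK cells, 2.33 in T cells and 4.40 in the other cells. With TMM factors the immediate early and glycolysis sums in NK cells stood at 1.14 and 1.10. Without cells that carried markers of other types these sums stood at 2.10 and 1.81, on 4 and 3 UMIs at 7 days, and neither passed.

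The genes with the largest ratios at 7 days were also high in the other cells of that library. Arg1, an enzyme of alternatively activated macrophages, had 2 UMIs in control NK cells and 25 at 7 days, of which 17 came from 1 cell, and was 34.0-fold higher in the other cells. Cxcl2, a neutrophil chemokine, had 8 and 24 UMIs and was 45.3-fold higher in NK cells (19.7 to 117) and 73.4-fold higher in the other cells. Neutrophil markers took 0.211% of nuclear-encoded UMIs of NK cells in the control library and 1.35% at 7 days, and their part in these ratios was not tested.

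The counts of higher and lower genes depended on the scaling. With TMM factors from edgeR, every 7-day ratio to control was multiplied by 0.451, after which 11 genes were higher and 347 lower. With all UMIs as the denominator, mitochondrial ones included, every ratio was multiplied by 1.22, which gave 106 higher and 19 lower. At 1 day TMM multiplied every ratio by 0.824 and gave 119 higher and 322 lower. The fall of the cell division list kept its direction under both scalings, at 0.0892 and 0.242 of control at 7 days, whereas the conventional NK list at 7 days turned to 0.912 with TMM factors.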

How the data were processed

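Drop-seq libraries were made from pooled mouse livers, 1 per group. The authors deposited raw UMI counts per gene and barcode (19091 genes) from the Drop-seq tools, with a minimum of 200 genes per barcode named in the file headers, although the fewest genes of any barcode was 11. The submitters' processing notes name STAR 2.5.2a and a human genome build; the mouse build and annotation are not given in the sources used here. Neither free RNA nor doublets were removed, and no doublet caller was run.

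Counts were summed over gated cells per library and divided by nuclear-encoded UMIs. Ratios carry 95% conditional binomial intervals, levels exact Poisson intervals and shares Clopper-Pearson intervals. A gene passed when it differed at least 2-fold with an interval that left out 1, among genes with at least 20 UMIs in both libraries together, gate and mitochondrial genes left out. A count of 0 was set against a floor of 3 counts. Named genes were those of fixed lists with at least 10 UMIs, the 10 that rose and the 10 that fell furthest, and the 15 highest against T cells. The gate, lists and tests were chosen with earlier results of these data known. The scripts were tested on simulated data. Alternatives changed the gate, the scaling and the minimum of UMIs, or left out cells carrying markers of other types. Those types were B cells, neutrophils, monocytes and macrophages, endothelial cells and mesenchymal cells, but not hepatocytes. A further alternative subtracted free RNA on the profile of barcodes below the gene minimum, scaled by hepatocyte markers. Python 3.11.15 with scipy 1.17.1 was used, with edgeR 4.0.16 for TMM factors only. The values of 1 listed gene are not reported here.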

Additional observations from a re-analysis of the deposited data

Results flagged for a closer look

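The summed level of interferon-stimulated genes at 1 day was 1.44 of the control level in NK cells (1.22 to 1.68) and 0.839 in T cells (0.766 to 0.918), so the 2 cell types moved in opposite directions with both intervals leaving out 1. The difference between the 2 cell types was not tested, because each condition was 1 library. In NK cells the ratio stood at 1.18 with TMM factors and at 1.16 without cells that carried Mki67 or Top2a.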

How the results depend on the processing

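No paired analysis was possible because each group was 1 library, and no library could be left out. The order of the 3 libraries by NK share was the same in every alternative. For the control, 1-day and 7-day libraries the share was 0.472%, 0.173% and 0.0889% with at least 3 NK genes, 1.23%, 0.184% and 0.0356% without cells carrying markers of other types, and 0.703%, 0.346% and 0.142% without Gzma. For control and 1 day it was 1.56% and 0.497% with no T gene, 1.93% and 0.595% from 100 genes, 1.75% and 0.617% at no more than 20% mitochondrial UMIs, and 1.28% and 0.480% after thinning. Of immune barcodes it was 2.71% in the control.

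Counts of genes changed with the number of cells and UMIs that entered. At 1 day, against 148 higher and 177 lower, they were 12 and 43 with 3 NK genes, 71 and 113 with no T gene, 71 and 112 under the mitochondrial limit, 9 and 19 without cells carrying other markers, 23 and 56 without Gzma, 36 and 86 from 50 UMIs, and 40 and 57 with cells thinned. They were 79 higher with free RNA subtracted, 280 higher from 10 UMIs, 322 lower with TMM factors and 88 lower without cells carrying Mki67 or Top2a. At 7 days, against 67 and 37, they were 13 and 11 with 3 NK genes, 9 and 0 without cells carrying other markers, 22 and 16 without Gzma, 106 and 19 scaled to all UMIs, 11 and 347 with TMM factors, and 19 and 20 thinned. They were 38 higher with free RNA subtracted, 29 higher from 50 UMIs and 110 higher from 10. Between 7 days and 1 day, against 41 and 62, they were 9 and 7, 1 and 3, and 16 and 16 under those 3 gates, 15 and 135 with TMM factors, 24 and 15 with free RNA subtracted, 20 and 24 from 50 UMIs, and 15 and 18 thinned. They were 35 lower from 300 genes, 72 higher scaled to all UMIs and 81 higher from 10 UMIs. Against T cells they were 46 higher at 1 day with no T gene. With 3 NK genes they were 53 lower in control, 49 higher and 22 lower at 1 day, and 6 lower at 7 days.

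Direction turned for Klra4 (1.07) and Ptprcap (1.06) at 1 day without cells carrying other markers. In the 2 cells left at 7 days Klra4 and Pkm had 0 UMIs (ratio 0), too little depth to give a direction. With free RNA subtracted, direction turned for Klra8 (1.12) and Ptprcap (1.17) at 1 day. Srgn at 7 days stood at 0.461 there on 2 UMIs, below the floor of 3 counts and too few to give a direction. The cause was not tested. TMM factors multiplied every 7-day ratio by 0.451, which put Gzmb (0.974), Ccl5 (0.881), and the summed conventional NK (0.912), interferon-stimulated (0.913) and granule lists (0.882) below 1. The subtraction put free RNA at 96.2% of UMIs at 1 day, against 26.9% in control and 27.4% at 7 days. Its smaller totals alone multiplied every 1-day ratio to control by 3.14. Thinning for the gene counts and the removal of dividing cells were chosen after seeing the data.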

Other observations

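Barcodes with fewer than 200 genes were in no comparison. Of these, 65 of 5318 in the control library passed the rest of the gate (1.22%), 31 of 8908 at 1 day (0.348%) and 12 of 6842 at 7 days (0.175%), the same order of libraries as among the cells.

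Some high counts came from single cells. At 7 days, 13 of the 16 UMIs of Marco, a scavenger receptor of macrophages, were in 1 gated cell. At 1 day, 19 of the 23 UMIs of Spp1, which encodes osteopontin, were in 1 gated cell.

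Ribosomal protein genes took 18.0% of nuclear-encoded UMIs in control NK cells, 11.6% at 1 day and 15.4% at 7 days. They took 20%, 14.6% and 17.0% in T cells, and 14.1%, 10.1% and 8.80% in the other cells.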
